A study of Mus musculus with 16 samples.

Results

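The amacrine cell and inhibitory transmitter genes described here were 10 rows of a table of 37255 gene intervals, chosen by gene symbol: Pax6, Tfap2a, Tfap2b, Tfap2c, Gad1, Gad2, Slc6a9, Slc32a1, Chat and Calb2. All 10 were found, and all 10 passed the filter on low counts. Chromatin accessibility was measured in them by ATAC-seq, which tags open DNA with adapters carried by a transposase, in retinal ganglion cells, whose axons form the optic nerve. The cells were isolated by flow cytometry from eyes of female mice, with about 15000 to 50000 cells per library. The naive mice (n = 5 libraries) were controls, and EAE (experimental autoimmune encephalomyelitis, in which an induced immune response damages myelin, often of the optic nerve too) had been induced at 7 to 8 weeks of age in mice taken at the presymptomatic stage (n = 4), at disease onset (n = 3) and at disease peak (n = 4). No strain, genotype or sorting marker was given in the sources used here. The labels do not state that libraries came from separate animals, so the p-values below measure no more than the variation among libraries, which may be technical in part.

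Amacrine cells are the inhibitory interneurons of the inner retina. They release GABA or glycine onto bipolar cells, ganglion cells and one another, and a class of them, the starburst cells, also releases acetylcholine and shapes the direction selectivity of ganglion cells. Displaced amacrine cells have their cell bodies in the ganglion cell layer, beside the ganglion cells that were sorted here. Pax6 is a paired-box and homeodomain transcription factor of eye development that persists in adult amacrine and ganglion cells, and the AP-2 factors encoded by Tfap2a, Tfap2b and Tfap2c mark amacrine cells, with Tfap2a and Tfap2b also acting in horizontal cell development. Gad1 and Gad2 encode the glutamate decarboxylases that make GABA, Slc32a1 the transporter that loads GABA and glycine into synaptic vesicles, and Slc6a9 the glycine transporter GLYT1. Chat makes acetylcholine, and Calb2 encodes calretinin, a calcium-binding protein of amacrine and ganglion cells. ATAC-seq reads come from DNA, so a level here is the number of insertions in a gene interval and not the amount of its transcript.

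The counted length of each gene was its annotated span less 2000 bp. The interval was taken here as the span less 1000 bp at each end, a placement that the deposited lengths do not fix. On this placement the outermost start of a gene was not counted, and starts further inside were. Statements below on what lay inside, outside or in shared stretches rest on it. The intervals of the 10 genes ran from 2.99 kb for Slc32a1 to 70.5 kb for Gad2, and Chat (55.7 kb), Gad1 (38.3 kb) and Slc6a9 (32.0 kb) were the next longest. No build is named in the sources used here, and each of the 10 genes lay within 10 bp of its RefSeq GRCm38.p6 position at one end or both. As deposited, with starts raised by 1 to count from 1, Pax6 spanned chr2:105668896-105698410 (+), Tfap2a chr13:40715302-40738237 (−) and Tfap2b chr1:19208914-19238845 (+). Tfap2c lay at chr2:172545679-172558622 (+), Gad1 at chr2:70561765-70602014 (+) and Gad2 at chr2:22621422-22693877 (+). Slc32a1 lay at chr2:158610758-158615747 (+), Slc6a9 at chr4:117835258-117869305 (+), Chat at chr14:32408203-32465909 (−) and Calb2 at chr8:110142538-110168206 (−).

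The RefSeq promoter table (GRCm38.p6) matched 8 of the 10 genes with 12 transcript starts; Tfap2c and Calb2 were not matched. Of these starts, 6 lay inside the counted intervals as placed here, those of Pax6 (13.6 kb from the outermost start), Tfap2a (3.32 and 4.44 kb), Tfap2b (3.14 kb) and Slc6a9 (14.1 and 20.3 kb). On this placement the counts of these 4 genes took in a promoter. The 6 others, of Pax6, Gad1, Gad2, Slc6a9, Slc32a1 and Chat, lay outside. The 250 bases before a start are shown for 4 counted promoters, as the regulatory sequence that the reads of these intervals include, 5′ to 3′ on the gene's strand, with each CpG dinucleotide in capitals.
Pax6, chr2:105682213-105682462 (+): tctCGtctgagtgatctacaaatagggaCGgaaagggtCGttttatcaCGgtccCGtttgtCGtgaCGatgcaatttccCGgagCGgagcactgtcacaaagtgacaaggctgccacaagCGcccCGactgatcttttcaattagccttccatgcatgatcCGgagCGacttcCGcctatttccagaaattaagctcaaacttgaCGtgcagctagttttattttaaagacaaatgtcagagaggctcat
Tfap2a, chr13:40734921-40735170 (−): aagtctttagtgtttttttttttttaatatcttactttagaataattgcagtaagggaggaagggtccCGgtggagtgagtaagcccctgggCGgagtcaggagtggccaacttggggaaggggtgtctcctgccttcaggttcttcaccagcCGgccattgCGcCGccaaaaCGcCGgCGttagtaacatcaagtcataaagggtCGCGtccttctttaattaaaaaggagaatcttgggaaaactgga
Tfap2b, chr1:19211804-19212053 (+): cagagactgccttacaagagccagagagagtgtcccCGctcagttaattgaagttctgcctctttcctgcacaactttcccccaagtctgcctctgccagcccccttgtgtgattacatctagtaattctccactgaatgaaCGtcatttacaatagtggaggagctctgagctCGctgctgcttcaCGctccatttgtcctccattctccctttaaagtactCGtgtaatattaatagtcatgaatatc
Slc6a9, chr4:117849100-117849349 (+): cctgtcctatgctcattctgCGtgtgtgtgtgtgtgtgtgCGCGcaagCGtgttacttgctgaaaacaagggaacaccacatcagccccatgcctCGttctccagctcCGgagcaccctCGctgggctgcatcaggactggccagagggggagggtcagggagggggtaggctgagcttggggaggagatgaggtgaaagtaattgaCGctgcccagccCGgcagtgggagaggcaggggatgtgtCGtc
These windows held 15 CpG for Pax6, 10 for Tfap2a, 5 for Tfap2b and 10 for Slc6a9, against a median of 6 over 32851 RefSeq promoters of the same length. By CpG number they lay at the 72.7th, 62.2nd, 44.4th and 62.2nd percentiles of those promoters, in the same order. The GC content of the 4 windows was 47.6%, 47.6%, 46.4% and 60.8% in the same order, against a median of 52.4%. The AP-2 recognition motif GCCNNNGGC, which reads the same on both strands, was found in 2 of the 12 member promoters, the outermost of Pax6 (1 match) and that of Gad2 (2 matches), both outside the counted intervals, and in 13.7% of all promoters.

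Between libraries, nuclear reads in intervals ranged from 1.58 to 15.1 M (megareads), with 1.58 to 3.70 M in peak libraries, the shallowest group, and 4.67 to 15.1 M in naive ones. Mitochondrial intervals took 8.36% to 64.7% of interval reads, the lowest share being that of onset replicate 3. The share of nuclear reads in 1450 olfactory and vomeronasal receptor intervals, genes of the olfactory system taken here as a measure of untargeted insertion, was 0.192% to 0.562% and was highest in naive replicates 3 and 4 and peak replicate 3. Ganglion cell markers had a median read density of 1.02 over 22 genes, in reads per kb of counted interval for every M of nuclear reads, with Pou4f3 highest at 3.34 and Eomes lowest at 0.519. Rod markers stood higher, at 1.25 over 17 genes, as did amacrine genes other than the members, at 1.20 over 19. Markers of bipolar cells (0.911), Müller glia and astrocytes (0.904), horizontal cells (0.882), starburst cells (0.812) and cones (0.800) stood lower. Microglial and macrophage markers were at 0.558 over 9. Gene-body density thus set ganglion cell markers above some lists of retinal cells and below others.

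Per length, the members formed 2 ranges. Pax6 had the highest mean density, 4.31 ± 1.86 reads per kb and M of nuclear reads (SD over 16 libraries), at the 97.3rd percentile of 29761 tested genes with intervals of at least 500 bp, whose median was 0.678. Tfap2a followed at 3.50 ± 1.17, Slc6a9 at 2.91 ± 1.69 and Slc32a1 at 2.67 ± 1.49, all above the 95th percentile of 2.54. Tfap2c (2.07 ± 0.80), Gad1 (1.65 ± 0.58) and Tfap2b (1.62 ± 0.62) lay at the 93.3rd, 90.4th and 90.1st percentiles. The lowest 3, Gad2 (0.860 ± 0.202), Calb2 (0.701 ± 0.263) and Chat (0.684 ± 0.144), were near the median gene, at the 66.2nd, 52.4th and 50.7th percentiles. Among the 8 genes with a known start in the table, the 4 with a start inside the interval held ranks 1, 2, 3 and 7 of 10 in density. The others, Slc32a1, Gad1, Gad2 and Chat, held ranks 4, 6, 8 and 10. The part of a counted start in the density was not tested.

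Most neighbours in this order were not separated by their spread over libraries. Pax6 exceeded Tfap2a in 13 of 16 libraries (mean difference 0.80 ± 1.01, SD), Slc6a9 exceeded Slc32a1 in 9 of 16 and Gad1 exceeded Tfap2b in 9 of 16. The step from Tfap2b to Gad2 was the clearest, with Tfap2b higher in 15 of 16 libraries (0.76 ± 0.55, SD). Calb2 was above Chat in 7 of 16. The glutamate decarboxylase genes differed in density, Gad1 lying at 1.65 and Gad2 at 0.860, while in counts per M of scaled reads (CPM) summed over their unequal lengths they averaged 32.9 and 31.7.

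**Figure D1:**
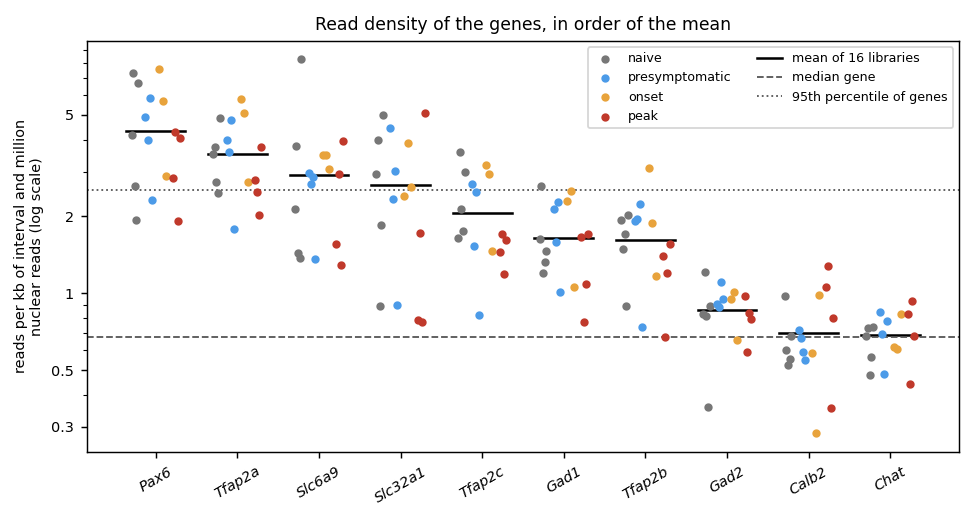
Read density of each member (y axis, reads per kb of counted interval and M of nuclear reads, log scale) in each of 16 libraries, coloured by stage; short lines are means over libraries, the dashed line the median gene (0.678) and the dotted line the 95th percentile of genes (2.54). Pax6, Tfap2a, Slc6a9 and Slc32a1 have means above the dotted line, and Gad2, Calb2 and Chat lie around the dashed line.

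On the placement assumed above, parts of these intervals were shared with other deposited intervals. The interval of Gm26688, a gene on the strand opposite Tfap2a, lay wholly inside that of Tfap2a, covering 25.6% of its length and holding 31.9% as many reads, with a density of 4.29. It exceeded its share of length in 11 of 16 libraries. Slc18a3, the vesicular acetylcholine transporter gene that sits within the Chat locus, took 0.743% of the Chat interval and had 74 reads in all libraries together, too few to be tested, and Mir3967 took 2.74% of Gad2. The spans of Pax6os1, Elp4, Gad1os and Ccdc24 overlapped those of Pax6, Gad1 or Slc6a9, with 0 bp shared between the counted intervals. Whether reads were assigned by strand was not given in the sources used here, and ATAC-seq reads carry no transcript strand, so reads of Tfap2a and Gm26688 cannot be told apart in the shared stretch.

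Stage by stage, the fate factor genes were spread widely within groups. Pax6 had 57.2, 104, 43.7, 28.4 and 99.5 CPM (scaled by TMM, a trimmed mean of log ratios between libraries) in naive libraries. It had 67.1, 55.7, 88.3 and 33.1 at the presymptomatic stage, 109, 86.1 and 36.3 at onset, and 37.3, 62.0, 29.4 and 54.7 at peak. The 4 peak libraries were below the naive mean but inside the naive range, and onset replicate 1 was above every naive library. Group means were 66.5 ± 33.7 in naive, 61.0 ± 23.0 in presymptomatic, 77.1 ± 37.2 in onset and 45.8 ± 15.1 CPM in peak libraries (SD, n = 5, 4, 3 and 4).

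Tfap2a, the AP-2α gene, had 36.9, 40.7, 34.6, 27.5 and 55.4 CPM in naive, 41.3, 38.0, 54.6 and 19.3 in presymptomatic, 63.5, 58.4 and 25.9 in onset and 27.9, 27.7, 23.4 and 38.6 in peak libraries. Onset replicates 1 and 2 were above the highest naive library while onset replicate 3 was below the lowest, and 1 of 4 peak libraries was below the lowest naive one. Tfap2b, the AP-2β gene, had 27.0, 21.6, 28.9, 13.2 and 30.7 CPM in naive, 26.6, 27.9, 34.4 and 10.7 in presymptomatic, 45.3, 28.9 and 14.9 in onset and 18.7, 9.98, 18.6 and 21.5 in peak libraries. Its peak libraries were all below the naive mean of 24.3 ± 7.08, and 3 of the 4 lay inside the naive range. Tfap2c, the AP-2γ gene, had 8.97, 20.4, 14.2, 10.2 and 17.7 CPM in naive, 14.5, 8.56, 15.0 and 4.66 in presymptomatic, 18.2, 17.6 and 7.28 in onset and 7.65, 9.84, 7.23 and 8.71 in peak libraries. Its peak libraries were the tightest group of the gene (8.36 ± 1.17, SD), and 3 of the 4 were below the lowest naive library.

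Among the genes of GABA and glycine handling, Gad1 had 31.3, 52.3, 27.7, 26.9 and 30.3 CPM in naive, 40.8, 30.9, 47.8 and 20 in presymptomatic, 46.1, 52.9 and 18.5 in onset and 30.6, 15.5, 23.1 and 32 in peak libraries. All 4 peak libraries were below the naive mean of 33.7 ± 10.6, which naive replicate 2 raised, and 2 of the 4 were below the lowest naive library. Gad2 had 29.2, 44.2, 34.9, 13.4 and 34.0 CPM in naive, 31.8, 31.6, 42.9 and 34.7 in presymptomatic, 35.3, 39.1 and 21.1 in onset and 33, 22, 32.8 and 27.4 in peak libraries. Every library outside the naive group lay inside its naive range. Slc6a9 had the widest naive group, with 34.1, 62.7, 27.9, 23.3 and 143 CPM, against 47.2, 43.9, 50.0 and 22.6 at the presymptomatic stage, 58.5, 61.7 and 44.9 at onset and 24.0, 49.7, 23.0 and 62.2 at peak. Naive replicate 5 alone was above all other libraries, and the naive median was 34.1 where the mean was 58.3 ± 50.0 (SD). Slc32a1, with an interval of 2.99 kb, rested on 6 to 181 reads per library and ranged from 1.13 to 8.12 CPM, and its peak group held both the lowest value (1.13) and the second highest (7.46).

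Chat was the most even of the genes across libraries. It had 18.9, 21.1, 16.2, 16.7 and 22.3 CPM in naive, 23.4, 19.7, 14.8 and 22.6 in presymptomatic, 18.1, 18.6 and 21.1 in onset and 22.3, 13, 28.9 and 18.7 in peak libraries. Its coefficient of variation in naive libraries was 14.1%, the lowest of the 10 genes, against 85.7% for Slc6a9. Calb2 had 11.5, 7.37, 7.51, 6.96 and 8.75 CPM in naive, 8.45, 8.05, 7.69 and 6.75 in presymptomatic, 7.28, 3.70 and 10.6 in onset and 12, 16, 4.66 and 9.33 in peak libraries. The peak libraries of Calb2 lay on both sides of the naive range, 2 above it and 1 below it.

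**Figure D2:**
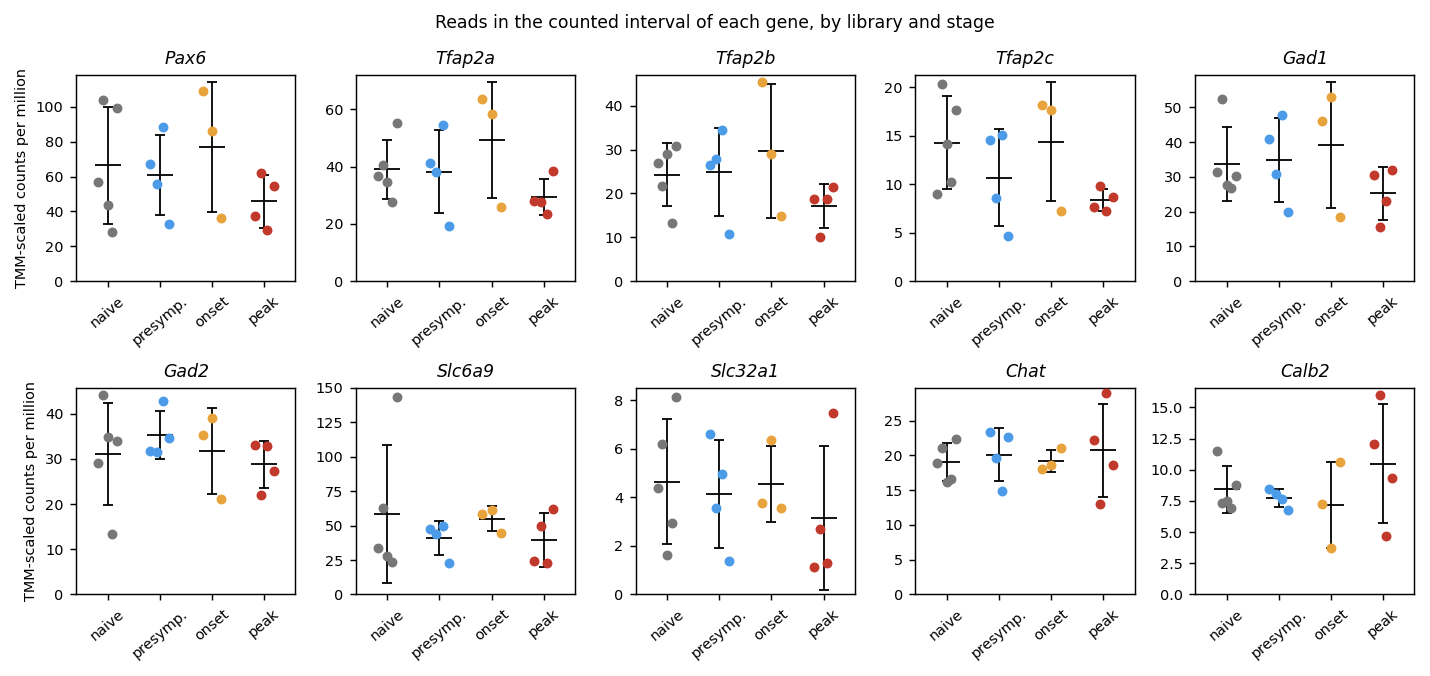
TMM-scaled CPM (y axes, linear from 0) of the 10 genes in each library by stage (x axes; n = 5 naive, 4 presymptomatic, 3 onset and 4 peak); horizontal lines are group means and bars are SD. In Tfap2c the 4 peak libraries lie between 7.23 and 9.84, and in every gene the peak points overlap the naive range.

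At disease peak against naive, 0 of the 10 genes passed the test, as did 0% of the 29902 genes tested (edgeR quasi-likelihood test, adjusted p threshold 0.05 over all genes; smallest adjusted p of any gene 1.00). DESeq2 called 1 gene, no member. By value, 8 of the 10 were lower and 2 higher than in naive, with a median log2 fold change of −0.47 (−0.30, with 3 higher, without naive replicate 5). Over all genes the median was −0.03, and 47.1% were higher than in naive. The 4 fate factors had fold changes of −0.54 ± 0.34 for Pax6, −0.42 ± 0.28 for Tfap2a, −0.51 ± 0.33 for Tfap2b and −0.78 ± 0.34 for Tfap2c (log2, SE). The 4 GABA and glycine genes were at −0.42 ± 0.30 for Gad1, −0.12 ± 0.27 for Gad2, −0.56 ± 0.39 for Slc6a9 and −0.68 ± 0.53 for Slc32a1, and Slc6a9 turned to 0.088 without naive replicate 5 and Gad2 to 0.046 without naive replicate 2. The 2 above naive were Chat (0.12 ± 0.24), which turned to −0.086 without peak replicate 3, and Calb2 (0.33 ± 0.33). With each library left out in turn, Slc32a1 ranged from −1.44 (without peak replicate 4) to −0.38, Gad1 from −0.55 to −0.20 (without naive replicate 2) and Pax6 from −0.73 to −0.32. Tfap2a ranged from −0.57 to −0.26, Tfap2b from −0.66 to −0.31, Tfap2c from −0.91 to −0.61 and Calb2 from 0.045 to 0.58. For 9 of the 10 the 95% interval of the difference included 0, and that of Tfap2c ran from −1.48 to −0.08 (edgeR unadjusted p = 0.0308, adjusted p = 1.00). Under 7 of 28 alternatives the unadjusted p of Tfap2c was above the threshold, among them limma voom (0.129) and the edgeR fits that left out naive replicate 2 (0.0947) or 5 (0.0624) or peak replicate 1 (0.0645) or 3 (0.0673). At an unadjusted p under 0.05 stood 1 of the 10 members and 1080 of all genes (3.61%).

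Some other values moved with this difference. Peak libraries had 1.58 to 3.70 M nuclear reads, fewer than any naive library. Müller glia and astrocyte markers were lower for 10 of 13 genes at a median of −0.33, with summed levels of 107 to 156 CPM in peak and 129 to 194 CPM in naive libraries, and ganglion cell markers were higher for 15 of 22 at 0.12, with 571 to 755 CPM in peak and 588 to 713 CPM in naive libraries. Microglial and macrophage markers were lower for 6 of 9 at −0.24. Medians of the other cell type lists were −0.08 for horizontal cells, −0.07 for rods, 0.04 for bipolar cells, 0.04 for starburst cells and 0.05 for cones. None of these lists had a gene past the test. The part of depth and cell makeup in the members' values was not tested, and in sorted bulk samples fewer amacrine cells and lower accessibility per cell cannot be told apart.

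**Figure D3:**
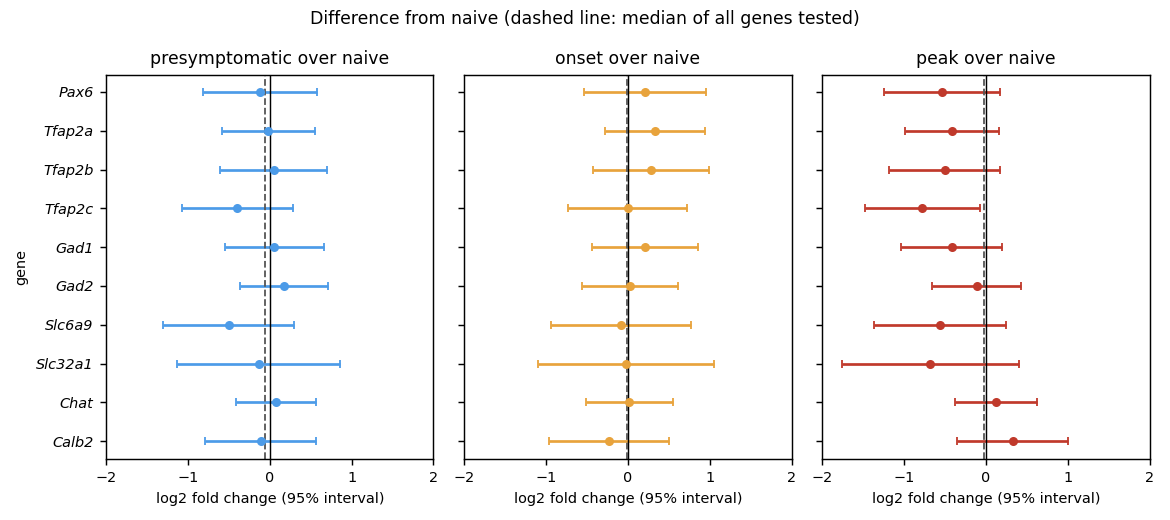
Log2 fold change over naive (x axes, points, with 95% intervals from the edgeR fit) for each gene at the presymptomatic stage, onset and peak; the dashed line marks the median of all genes tested. At peak 8 of 10 points lie left of 0, and 1 interval, that of Tfap2c (−1.48 to −0.08), leaves 0 out.

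At the presymptomatic stage against naive, 0 of 10 members passed (0% of all genes, edgeR), and their median of −0.07 was close to that of all genes (−0.06), with 4 higher and 6 lower (41.6% of all genes were higher). With each library left out in turn, the number higher ranged from 1 (without naive replicate 4) to 8 (without naive replicate 5). At an unadjusted p under 0.05 stood 0 members and 348 genes (1.16%). The lowest was Slc6a9 at −0.50 ± 0.39 (log2, SE), followed by Tfap2c at −0.40 ± 0.33, and the highest was Gad2 at 0.18 ± 0.26. The Slc6a9 value was set by the single naive library with 143 CPM, since it was 0.15 without naive replicate 5. Gad2 was at −0.013 without naive replicate 4. Presymptomatic replicate 4, one of 2 libraries numbered out of stage order, was the lowest of its group in 8 of the 10 genes.

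At onset against naive, 0 of 10 passed (0% of all genes, edgeR), with 6 higher, 4 lower and a median of 0.02, against −0.01 for all genes, of which 48.6% were higher. At an unadjusted p under 0.05 stood 0 members and 1480 genes (4.95%). Tfap2a (0.33 ± 0.30, log2, SE) and Tfap2b (0.28 ± 0.34) had the highest values and Calb2 (−0.23 ± 0.36) the lowest. The direction of Tfap2b rested on onset replicate 1, without which it was −0.14, and that of Calb2 on onset replicate 2, without which it was 0.10. Onset replicates differed in the same way across the list: replicate 3 was the lowest of the 3 in 8 genes and the highest in the other two, Chat and Calb2. Rod photoreceptor markers were higher for 17 of 17 tested genes at onset at a median of 0.98, with 12 at an unadjusted p under 0.05 and 0 past the adjusted threshold. Their summed level was 368 to 666 CPM in onset and 217 to 360 CPM in naive libraries, highest in onset replicate 3 on the log2 mean score, and their part in the members' onset values was not tested.

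Between disease stages, peak against onset gave the members' widest median difference. The 4 fate factors and 4 GABA and glycine genes were all lower at peak, Chat and Calb2 were higher (0 of 10 were higher with total counts alone, where the median gene was at −0.53), and the median was −0.64, against 0.03 for all genes, of which 52.1% were higher. Tfap2a was at −0.75 ± 0.32 (log2, SE; edgeR unadjusted p = 0.0248) and Tfap2b at −0.79 ± 0.37 (unadjusted p = 0.0398), both with an adjusted p of 0.737. With each library left out in turn, Tfap2a ranged from −1.07 to −0.54 and Tfap2b from −1.13 to −0.37. At an unadjusted p under 0.05 stood 2 members with all libraries, 0 without onset replicate 1 or onset replicate 2, and 6 without onset replicate 3. Tfap2c (−0.78 ± 0.38), Pax6 (−0.75 ± 0.39) and Gad1 (−0.63 ± 0.34) were similar in size, and Calb2 was at 0.56 ± 0.38. Of all genes, 1987 (6.65%) had an unadjusted p under 0.05, 0% passed after adjustment, and the smallest adjusted p was 0.229; DESeq2 called 5 genes, 0 of them members. For Tfap2a, Tfap2b and Tfap2c the groups overlapped through onset replicate 3, whose 25.9, 14.9 and 7.28 CPM lay within the peak ranges. Rod markers were lower at peak than at onset for 16 of 17 genes at a median of −0.88, with 9 at an unadjusted p under 0.05 and summed levels of 205 to 374 CPM in peak and 368 to 666 CPM in onset libraries. Müller glia and astrocyte markers were lower for 10 of 13 at −0.34 (107 to 156 CPM in peak, 140 to 159 CPM in onset libraries), and ganglion cell markers were higher for 15 of 22 at 0.18 (571 to 755 CPM in peak, 526 to 655 CPM in onset libraries). Medians of the other cell type lists were −0.23 for bipolar cells, −0.11 for horizontal cells, −0.03 for starburst cells, −0.01 for microglia and macrophages and 0.04 for cones. The part of these cell types in the members' values was not tested. Comparisons that include the same stage share its libraries, so these values are not independent of those against naive.

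In the remaining comparisons, 0 of 10 members passed in peak against presymptomatic (median −0.39, 2 higher and 8 lower), where 0% of all genes passed, 53.3% were higher and 3.41% had an unadjusted p under 0.05. In onset against presymptomatic 0 members passed (median 0.19, 7 higher and 3 lower), where 0% of all genes passed, 53.3% were higher and 4.13% had an unadjusted p under 0.05. An edgeR F test over all 3 stages against naive also called 0 members and 0% of genes (3.16% at an unadjusted p under 0.05), with the smallest unadjusted p among members at 0.120 for Tfap2c. Without onset replicate 3, 4 members and 791 of 30574 genes had an unadjusted p under 0.05 in this test. Leaving out presymptomatic replicate 4 as well gave 4 members and 791 of 30834 genes. Any other single library left out gave 0 members. With total counts alone it was 3 members and 2464 of 29902 genes. The 95% interval of the difference between peak and naive ran from −1.25 to 0.16 for Pax6 and from −0.38 to 0.62 for Chat.

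Across the 16 libraries, 8 of the genes varied together and Chat and Calb2 did not vary with them, a division made after the values were seen. The median Pearson r of log2 CPM over pairs among the 8 was 0.67 (0.13 to 0.89), described without a test since the points share libraries, depth and scaling. Pairs of other tested genes were not examined, so these values are not shown to be particular to the members. Pax6 with Tfap2a (0.89), Tfap2a with Tfap2b (0.86), Tfap2a with Tfap2c (0.85) and Slc6a9 with Slc32a1 (0.84) were the closest. Gad2 was the loosest of the 8, with 0.60 to Gad1 and 0.13 to Slc32a1. Pairs that included Chat or Calb2 had a median r of −0.21 (−0.44 to 0.24), and Chat with Calb2 was at −0.35.

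The libraries with the lowest mean over the 10 standardised genes were presymptomatic replicate 4 (−0.98 SD), naive replicate 4 (−0.95), peak replicate 3 (−0.68), peak replicate 2 (−0.58) and onset replicate 3 (−0.51). The highest were naive replicates 5 (0.93) and 2 (0.76) and onset replicate 1 (0.76), so both ends held libraries of more than one stage. The receptor share moved with some of the genes: Slc6a9 had r = −0.69 with its log2 value over 16 libraries, Pax6 −0.60 and Slc32a1 −0.58, whereas Chat had −0.06 and Tfap2b −0.16. Within stages these were −0.68, −0.62, −0.63, −0.09 and −0.10 in the same order of genes. Among all tested genes the median r was −0.08, and 9.68% lay below −0.6. With the log2 receptor share as a covariate in the edgeR fit, 0 members passed in any comparison, and the median of the members was 0.08 at the presymptomatic stage, −0.03 at onset and −0.44 at peak against naive. Slc6a9 was then at −0.11 at the presymptomatic stage against naive, and Pax6 at −0.44 and Calb2 at 0.78 in peak against onset.

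**Figure D4:**
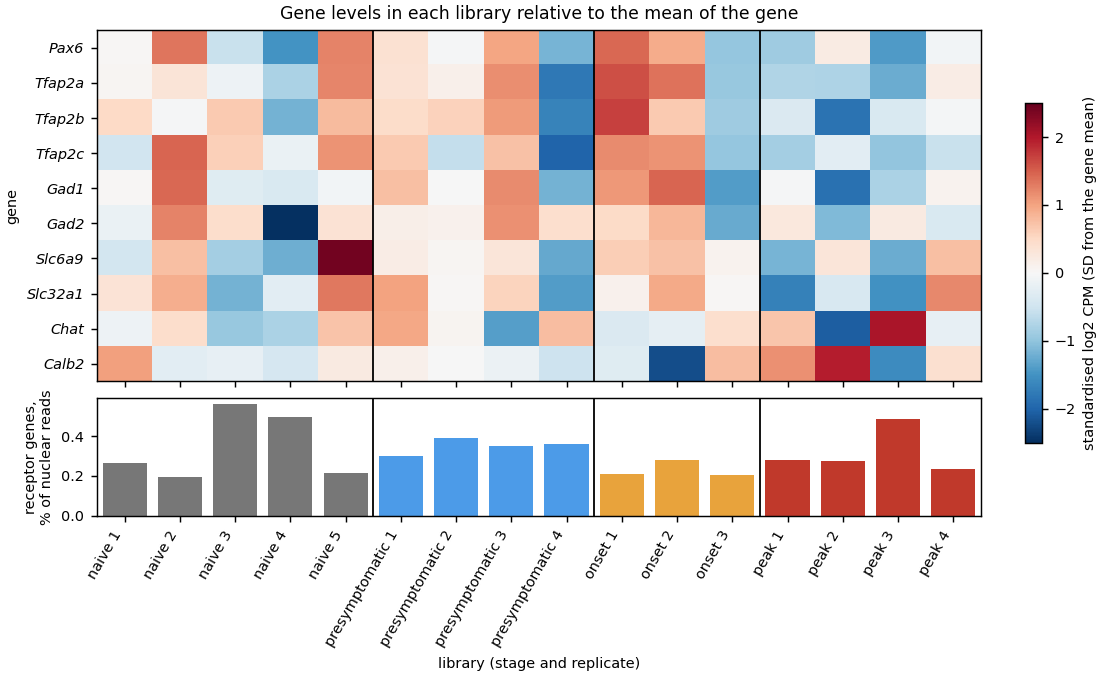
Standardised log2 CPM (colour, SD from the mean of the gene over 16 libraries) of the 10 genes in each library, above bars of the share of nuclear reads in olfactory and vomeronasal receptor intervals (%). Presymptomatic replicate 4 is the lowest of its stage in 8 rows and onset replicate 3 in 8 rows, neither of them in the row of Chat; the bars are highest in naive replicates 3 and 4 and peak replicate 3.

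The genes whose log2 CPM was most like the mean of the members were Frmd5 (r = 0.94), which encodes a FERM-domain protein, Sptbn4 (0.94), the βIV spectrin of the axon initial segment, Gm39002 (0.94), Cpt1c (0.93), the brain isoform of carnitine palmitoyltransferase, and Gltscr1 (0.93). These are the 5 highest Pearson values over 16 libraries among the tested genes that are no members. Of the 5, Frmd5 and Gm39002 were also among the 5 most alike by Spearman rho. Their own r with the receptor share ran from −0.71 for Cpt1c to −0.53 for Gltscr1, as low as that of Pax6 or lower in 2 of the 5.

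Further genes of these pathways gave 0 calls in every comparison (0% of all genes, edgeR). At peak, other amacrine genes were higher for 7 of 19 tested of 21 listed, at a median of −0.15, against −0.47 for the members. The 2 with the smallest F test p were Neurod1, a basic helix-loop-helix factor of amacrine and photoreceptor development (peak −0.30 ± 0.39, onset 0.72 ± 0.39, log2 over naive, SE), and the LIM-homeodomain gene Lhx9 (peak −0.56 ± 0.30). GABA pathway genes other than the members, among them receptors, transporters and enzymes, were higher at peak for 7 of 24 at −0.10. Gabrr2, a subunit of the GABA-C receptors known from bipolar cells, had 28.0 ± 7.66 CPM in presymptomatic, 30.3 ± 10.0 in onset and 16 ± 8.47 in peak libraries, against 18.4 ± 6.09 in naive (SD; onset 0.71 ± 0.32, log2, SE; edgeR F test unadjusted p = 0.0222, adjusted p = 1.00). Gabra3, an X-linked GABA-A receptor subunit, had 58.1 ± 18.6 CPM at onset and 106 ± 71.2 in naive libraries (−0.87 ± 0.38, log2, SE).

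Glycine pathway genes were higher at peak for 3 of 11 tested of 12 listed, at −0.14. The glycine receptor subunit gene Glra1 was at 0.32 ± 0.23 and Slc6a5, the neuronal glycine transporter GLYT2, at −0.35 ± 0.28 (log2, SE). Starburst cell markers, Chat among them, were higher at peak for 4 of 7 tested of 9 listed, at a median of 0.04. Acetylcholine pathway genes were higher for 7 of 18 tested of 19 listed, at −0.06. They included Chrna3, a nicotinic receptor subunit, with 5.51 ± 2.97 CPM in peak and 2.92 ± 0.87 CPM in naive libraries (0.93 ± 0.41, log2, SE; edgeR unadjusted p = 0.0289, adjusted p = 1.00), and the acetylcholinesterase gene Ache at −0.54 ± 0.41. Neuropeptide genes of amacrine cells were higher for 4 of 6 tested of 10 listed, at 0.04, and rested on few reads: Nts, the neurotensin gene, averaged 3.15 CPM in peak and 1.93 in naive libraries, and Npy, the neuropeptide Y gene, 1.37 in peak and 1.31 in naive libraries. Not tested for low counts were, among others, Ptf1a, the amacrine and horizontal cell fate factor, with 24 reads in all libraries, and Sst, the somatostatin gene, with 60.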

How the data were processed

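ATAC-seq libraries of retinal ganglion cells isolated from mouse eyes by flow cytometry (16 in all) were read from 1 deposited table. It held an unscaled read count, a whole number, for each gene interval and library, as deposited. The RPKM values in the same deposited table are those counts per kb of interval and M of library reads. They were used to find the length counted, the gene's span less 2000 bp, and the totals (7.42 to 65.2 M reads per library). These lengths do not fix where the 2000 bp were taken off, and 1000 bp at each end was assumed. Per the submitters' processing notes the tools were cutadapt, HISAT2 and HTSeq. Their versions, the genome build, duplicate handling, multiple alignments and any shift of read ends are not stated in the sources used here.

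Counts were filtered with filterByExpr (minimum count 10, minimum total 15), which kept 29902 genes, scaled by TMM and fitted with edgeR 4.0.16 in R 4.3.3 (glmQLFit and glmQLFTest, default settings, 1 mean per stage, 16 libraries in 1 fit). Standard errors of log2 fold changes were computed from the fold and its F value, and p-values were adjusted by Benjamini-Hochberg over all genes (threshold 0.05). The fit was tested on simulated counts. Log2 CPM used a prior count of 2. DESeq2 1.42.0, limma 3.58.1 voom, other scalings, filters, covariates and sets of libraries were alternatives. The planned test assumed promoter windows, and the intervals were gene bodies. Named from each further list were the 2 tested genes with the smallest F test p, besides overlapping intervals and the 5 genes most like the members. Members and lists were chosen with earlier results of these data known.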

Additional observations from a re-analysis of the deposited data

Results flagged for a closer look

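Each gene was examined in the naive, presymptomatic and peak groups, 30 groups in all, and chance marks about 1 in 20 of them. Gad1, the glutamate decarboxylase gene, had 52.3 CPM in naive replicate 2, far above the other naive libraries (26.9 to 31.3 CPM), a gap of 0.772 of the range of the group on the log2 CPM scale, on which all groups were examined. Slc6a9, the glycine transporter gene, had 22.6 CPM in presymptomatic replicate 4, far below the other presymptomatic libraries (43.9 to 50.0 CPM), a gap of 0.835 of the range on the same scale. Naive replicate 2 was the deepest library in nuclear reads at 15.1 M, and presymptomatic replicate 4 the shallowest of its group at 2.23 M. The part of depth in either value was not tested.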

How the results depend on the processing

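The members called stayed at 0 in the 6 comparisons under every alternative run, and in the F test under all but the fit of only the groups compared, which gives no F test. Counts of called genes, 0 in the fit reported, moved with DESeq2 to 1 in peak against naive, 1 in onset against presymptomatic, 5 in peak against onset and 5 over any stage. They were 2 over any stage with total counts alone, 1 in onset against presymptomatic with the replicate block, and 1 in peak against presymptomatic and 1 over any stage when the 3 libraries with most receptor reads were left out, an alternative chosen after seeing the data. The onset median of the members was 0.56 with total counts alone, where the median gene moved to 0.60, and on that scale Calb2 was at 0.57 at onset and −0.19 in peak against onset. Chat at peak was at −0.043 with voom and −0.21 without those 3 libraries, and Gad2 at the presymptomatic stage at −0.011 without them. With the replicate block, Slc6a9 was at 0.23 at the presymptomatic stage and 0.13 at peak, and the members' peak median was −0.23 with 3 higher. The unadjusted edgeR p was then 0.0682 for Tfap2c at peak, and 0.0663 for Tfap2a and 0.117 for Tfap2b in peak against onset. Of 21 same-numbered pairs of libraries, 6 correlated over 0.1 (−0.34 to 0.37). Pairs with different numbers were not examined, so this cannot decide whether same-numbered libraries share a batch. The cause of the moves under these alternatives was not tested. Leaving out each library in turn, log2 fold changes ranged from −0.65 to 0.10 for Calb2 and −0.14 to 0.60 for Tfap2b at onset. They ranged from −0.086 to 0.29 for Chat (below 0 without peak replicate 3), −0.31 to 0.046 for Gad2 (above 0 without naive replicate 2) and −0.86 to 0.088 for Slc6a9 at peak. At the presymptomatic stage they ranged from −0.013 to 0.34 for Gad2 and −0.70 to 0.15 for Slc6a9. In these fits 0 genes passed in any test, and the members' median ranged from −0.60 to −0.30 at peak, −0.08 to 0.28 at onset and −0.18 to 0.14 at the presymptomatic stage. Of the values of densities and of the single genes followed here under alternatives, 617 stayed the same, 14 reversed and 2 moved. This tally held every member at peak against naive but only some members in the other comparisons. Genes outside it changed direction too. At onset, 10 members were higher with total counts alone and 6 in the fit reported. At the presymptomatic stage, 8 were higher with the replicate block and 4 in the fit reported. For single genes, the same meant the same direction and the same side of the adjusted p threshold. With 0 members past it in every fit, crossing an unadjusted p of 0.05 did not count as a change. For densities, it meant a difference below the SD over libraries. The 2 that moved were the density of other amacrine genes (1.08 with intervals of at least 2000 bp) and the number of most alike genes shared by both measures of likeness (2). Depth limits Slc32a1 most, with 8, 19, 8 and 24 reads in the peak libraries.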
